A study of Homo sapiens with 16 samples.

Results

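MDM2, MDM4, PPM1D and CCNG1 are regulators that hold p53 activity down, and 4 of the 20136 protein-coding genes of the annotation. Every peak of the 8 deposited lists that reached within 50 kb of a gene body was taken (GENCODE on GRCh37, the hg19 assembly), which gave 43 of 76863 peaks. Overlapping peaks of the same factor (1 bp or more) were joined into sites, and the 4 genes had 20 of 32044 sites, namely 7 of 2980 p53 sites and 13 of 29064 CTCF sites. Chromatin immunoprecipitation followed by sequencing (ChIP-seq) of p53 and of CTCF was carried out in parental MCF10A cells, an immortalised mammary epithelial line that does not form tumours, and in MCF10A cells carrying the HRAS oncogene H-RAS Gv12, called G12V. There were 2 biological replicates for each factor and cell type. The p53 cells of both types were treated with Nutlin, which frees p53 from MDM2, before fixation, so no p53 library shows binding without the drug, while the labels give no treatment for the CTCF cells. The oncogene was delivered by lentivirus together with a GFP vector, cells were selected with hygromycin, and no isolation of clones is described. Peak lists hold no expression values, so the cell type could not be checked against marker genes.

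p53 is a transcription factor that is kept low in unstressed cells. MDM2 is a ubiquitin ligase that marks p53 for degradation, and its gene is itself switched on by p53. MDM4 is a relative of MDM2 that covers the activation domain of p53, PPM1D (also called WIP1) is a phosphatase that removes activating phosphates from p53 and from kinases of the DNA damage response, and CCNG1 encodes cyclin G1, which recruits a phosphatase to MDM2. p53 binds a pair of 10-base elements, each built around a C and a G that are set apart by A or T bases. CTCF is a zinc-finger protein found at insulators and at the borders of chromatin domains.

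The p53 sites are shown here because 4 of them held an element of 20 bases that passed the search near the summit. Capitals mark the p53 full site, a pair of adjacent 10-base elements with the C and G intact and at most 3 other mismatches, found in the 150 bp around the summit, and the flanking bases are in lower case. All sequences are the plus strand of GRCh37.
MDM2 intron 1, chr12:69202698-69202727: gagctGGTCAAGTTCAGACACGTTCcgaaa
MDM4 intron 1, chr1:204494169-204494198: tgtcaAGACATGTTCCAACATGTTGtagag
CCNG1 intron 1, chr5:162864927-162864956: tgtgaGCACAAGCCCAGGCTAGTCCgaggc
BCAS3 intron 3 beyond PPM1D, chr17:58764023-58764052: attgcAGGCATGTGCCAACACGCCCggcca
The CCNG1 element has 1 mismatch, the MDM2 and MDM4 elements have 2 each and the element in BCAS3 has 3. Their centres lie at -36.5 bp from the summit at MDM2, at -19.5 bp at MDM4, at -3.5 bp in BCAS3 and at 1.5 bp at CCNG1. The MDM2 window held 3 single 10-base elements with at most 1 mismatch, so the marked pair is not the only match there. Pairs in which a C or G of the core is changed were not searched. Of all 2980 p53 sites 70.4% hold such an element, against 0.973% of windows placed 2000 bp beside the summits, and 4 of the 7 sites of the feedback genes do.

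When up to 13 bases were allowed between the 10-base elements, 2 further sites had a match, and these are shown with the spacer in lower case between the capitals.
MDM2 upstream, chr12:69181498-69181527: atGGGCAAGTCCaggcaaAAGCCCGTGCgg
PPM1D exon 1, chr17:58677596-58677623: ccGGCCCAGCTCtcgcGGACAAGTCCag
The MDM2 upstream match has a spacer of 6 bases and 3 mismatches, and the PPM1D match a spacer of 4 bases and 2 mismatches. This looser search matched 80.8% of all p53 sites and 5.50% of windows beside them. The site upstream of MDM4 had no match under either search. The summit region of the MDM2 intron also held the AP-1 element tgactca (searched as TGACTCA or TGAGTCA without mismatch), ahead of the p53 element, which can be read in this longer stretch, chr12:69202653-69202772: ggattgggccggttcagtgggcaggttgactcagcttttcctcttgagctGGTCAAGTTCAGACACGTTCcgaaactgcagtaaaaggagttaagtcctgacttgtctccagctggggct. An AP-1 element lay in the 150 bp around the summit of 6.71% of all p53 sites, and in none of the other 6 sites of the feedback genes.

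**Figure D1:**
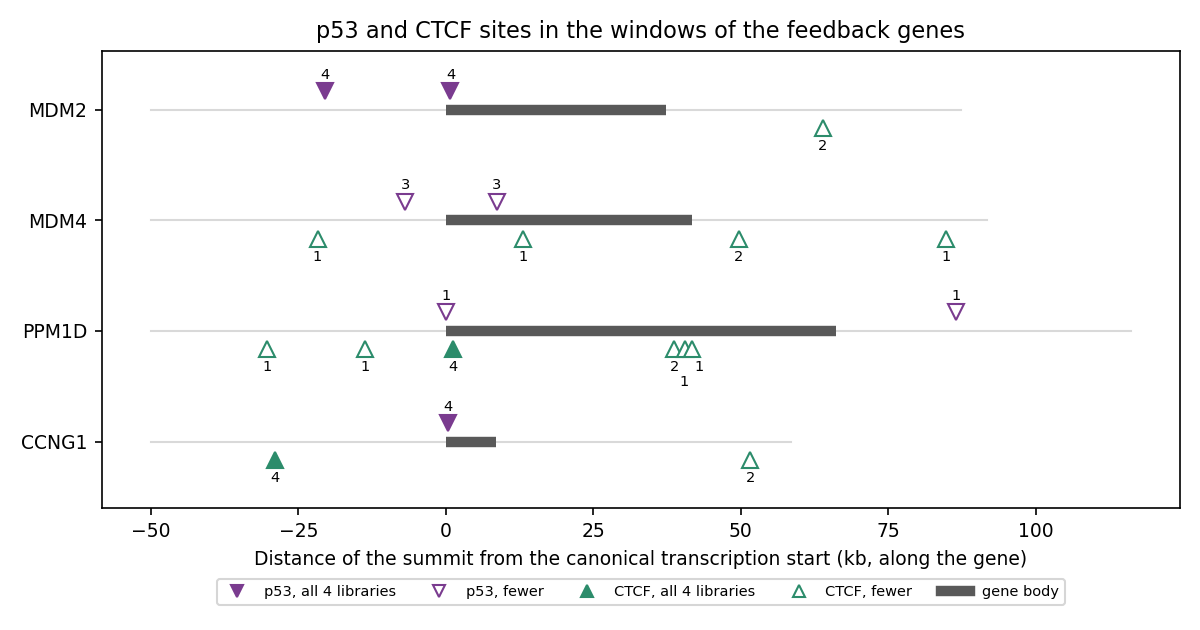
Positions of the 7 p53 sites (triangles above each line) and 13 CTCF sites (triangles below) by distance of the summit from the canonical transcription start, in kb along the gene. Filled symbols mark sites listed in all 4 libraries of the factor, the small numbers give how many libraries listed the site, and MDM2 and CCNG1 are the genes whose p53 sites at the start were listed in all 4.

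All 4 genes had a p53 site in their window, which held for 18.9% of protein-coding genes. MDM2, MDM4 and PPM1D had 2 p53 sites each and CCNG1 had 1, and 3.28% of genes had 2 or more. A p53 site listed in all 4 libraries lay in the window of MDM2 and of CCNG1, and in that of 2.4% of genes. The 2 sites of MDM4 were listed in 3 libraries and the 2 sites of PPM1D in G12V replicate 2 alone. A p53 site was within 50 kb of 10.7% and 5.92% of genes in MCF10A replicates 1 and 2, and of 3.48% and 17.1% of genes in G12V replicates 1 and 2, so each count is read against the list it comes from. The lists themselves held 1718, 885, 477 and 2619 p53 peaks in that order, of which 5, 5, 3 and 7 belonged to the feedback genes. Solving the peak values for depth gave 21.4, 20.1, 9.26 and 33.2 M reads (M is 1e6 reads), in the order of MCF10A replicates 1 and 2 and G12V replicates 1 and 2, which is the order used for all values. G12V replicate 1, the shallowest library with the shortest list, carries the word "old" in its peak names.

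Among the 7 p53 sites of the feedback genes the highest fold in each library was in intron 1 of MDM2 (ENSG00000135679.27_14), at chr12:69202282-69203200, although in MCF10A replicate 2 it was only just above that of the MDM4 intron, 11.4 against 11.3. Its summit was 792 bp downstream of the canonical start and 33 bp upstream of the start of another annotated MDM2 transcript, the inner promoter from which p53 is known to raise MDM2. The fold is the summit signal plus 1 divided by the local background plus 1. It was 34.6 and 11.4 in MCF10A replicates 1 and 2, and 29.2 and 65.1 in G12V replicates 1 and 2. Ranked by −log10 q within each list, the peak was number 44 of 1718 and 243 of 885 in MCF10A and number 14 of 477 and 5 of 2619 in G12V. The site was in the upper part of every list, and its lowest rank percentile (100 is the strongest peak) was 72.7, in MCF10A replicate 2, against 97.5, 97.3 and 99.8 in the other libraries. The reads over the summit numbered 74, 24, 57 and 274, or 3.46, 1.19, 6.15 and 8.26 per M ChIP reads. Both G12V libraries were above both MCF10A libraries per M reads, whereas the fold of G12V replicate 1 lay between those of the MCF10A libraries. Reads were extended to 147 and 113 bp in MCF10A and to 279 and 180 bp in G12V. Reads per M were not corrected for this length, so cell type and extension cannot be told apart in their order. The summits of the 4 libraries were within 59 bp of each other.

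The other MDM2 site was 20.4 kb upstream of the start, at chr12:69181236-69181779, where the summit falls within an intron of a transcript of SLC35E3 other than its canonical one. The MCF10A libraries had folds of 9.47 and 8.69, and the G12V libraries of 8.18 and 32.3. The ranks were 780, 473, 296 and 127, which are percentiles of 54.7, 46.7, 38.2 and 95.2. The site was thus near the middle of 3 lists and near the top of the list of G12V replicate 2. The summit carried 23, 15, 17 and 132 reads, or 1.08, 0.746, 1.84 and 3.98 per M.

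CCNG1 (ENSG00000113328.20_11) had its p53 site in intron 1, at chr5:162864542-162865117, 339 bp downstream of the canonical start. In MCF10A the fold was 8.36 and 5.93, and in G12V it was 5.95 and 18.0. The ranks of 669, 720, 373 and 335 correspond to percentiles of 61.1, 18.8, 22.01 and 87.2. By fold and by rank percentile the cell types overlapped, with G12V replicate 2 highest and the other replicate of G12V next to the lowest. Its full site was the closest to the consensus of the 4, yet its fold was below that of the MDM2 intron in each library. Reads over the summit were 33, 15, 20 and 95, or 1.54, 0.746, 2.16 and 2.86 per M, which put both G12V libraries above both MCF10A libraries. These values, too, were not corrected for the longer read extension in G12V.

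**Figure D2:**
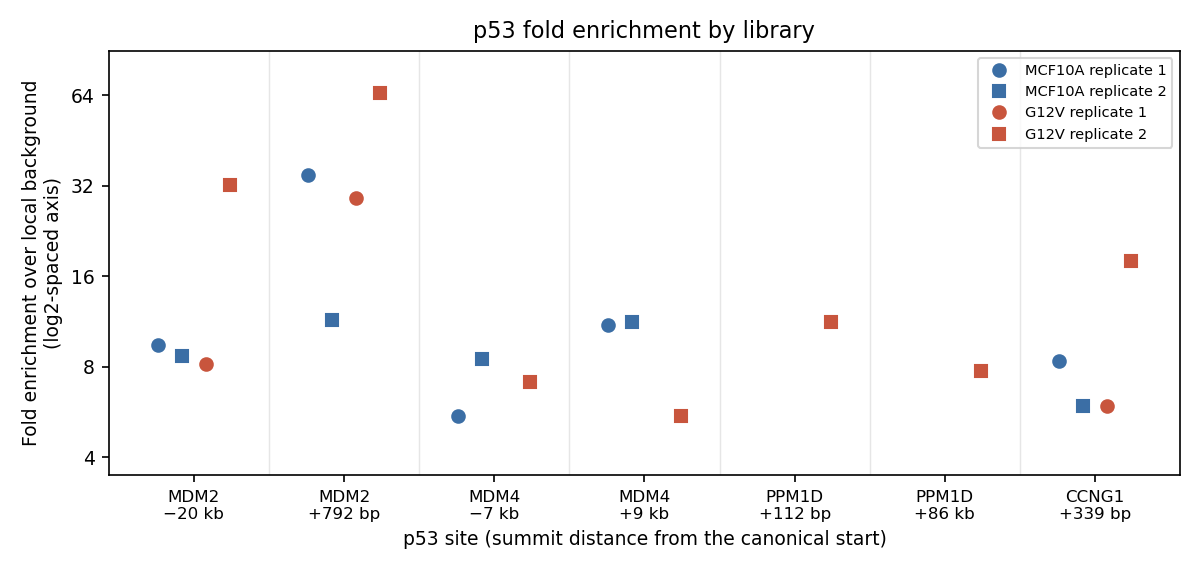
Fold enrichment over local background (log2-spaced axis) of the 7 p53 sites in each library, circles for replicate 1 and squares for replicate 2, with no symbol where a list had no peak. The MDM2 intron reached 65.1 in G12V replicate 2, and the PPM1D sites have a symbol for that library alone.

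In MDM4 (ENSG00000198625.14_9) the main p53 site was in intron 1, at chr1:204493965-204494433, 8.67 kb downstream of the canonical start and 415 bp upstream of the start of a shorter transcript. The fold was 11.1 and 11.3 in MCF10A and 5.48 in G12V replicate 2, and G12V replicate 1 listed no peak. The ranks were 277 of 1718, 169 of 885 and 1163 of 2619, or percentiles of 83.9, 81.0 and 55.6. In MCF10A replicate 2 it ranked ahead of the MDM2 intron, the reverse of the other libraries that listed both. By fold and by rank percentile the site was higher in both MCF10A libraries than in the G12V library that listed it. The summit reads gave another order. They numbered 61 and 32 in MCF10A and 67 in G12V replicate 2, or 2.85, 1.59 and 2.02 per M, so that the G12V library lay between the MCF10A libraries. The local background under the peak was 3.95 and 2.27 times the genome-wide level in MCF10A and 5.01 times in G12V replicate 2. The fold divides by this background plus 1. G12V replicate 2 had a lower fold and a higher background than both MCF10A libraries. Its reads were extended to 180 bp, those of MCF10A to 147 and 113 bp, and reads per M were not corrected for this. Whether background, extension or occupancy set the lower fold was not tested.

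Upstream of MDM4, 6.84 kb before the canonical start and outside any named gene of the annotation, a weaker p53 site lay at chr1:204478534-204478830. Its fold was 5.495 and 8.52 in MCF10A and 7.12 in G12V replicate 2, with ranks of 941, 364 and 1230. The reads per M were 1.59, 1.09 and 1.45, and the groups overlapped in both measures. For G12V replicate 1, which listed neither MDM4 site, the reads needed were computed from its lowest listed −log10 p of 6.74 and the background ratio of G12V replicate 2. The intron site would have needed 19 reads (2.05 per M) and the upstream site 14 reads (1.51 per M). G12V replicate 2 had 2.02 and 1.45 per M at these sites, just under those limits, and MCF10A replicate 1 had 2.85 and 1.59 per M, above them. Whether the missing peaks reflect depth or a lower level was not tested, since the limits rest on a background taken from another library.

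PPM1D (ENSG00000170836.13_7) had a p53 site over exon 1, at chr17:58677390-58677909, with its summit in the 5′ untranslated part and 112 bp downstream of the canonical start. It was listed in G12V replicate 2 alone, with a fold of 11.2, rank 729 of 2619 and 61 reads or 1.84 per M over the summit. A second site, at chr17:58763892-58764150 in intron 3 of the neighbouring gene BCAS3, was also listed there alone, with a fold of 7.78, rank 1397 and 36 reads or 1.08 per M. Of all p53 sites 38.5% were listed in G12V replicate 2 alone. With the background ratio of that library, the exon 1 site would have needed 11 and 10 reads in MCF10A replicates 1 and 2, or 0.514 and 0.497 per M, and 12 reads or 1.30 per M in G12V replicate 1. The level of G12V replicate 2 was above all 3 of these limits, whereas at the site in BCAS3 it was above the MCF10A limits of 0.468 and 0.448 and under that of G12V replicate 1, 1.19. These limits assume the background of another library and do not allow for differences in enrichment or read extension between libraries. The median fold of the libraries over the 332 p53 sites listed in all 4 was 17.9, 11.1, 9.41 and 24.9. PPM1D therefore had no p53 peak that was seen in more than 1 library.

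**Figure D3:**
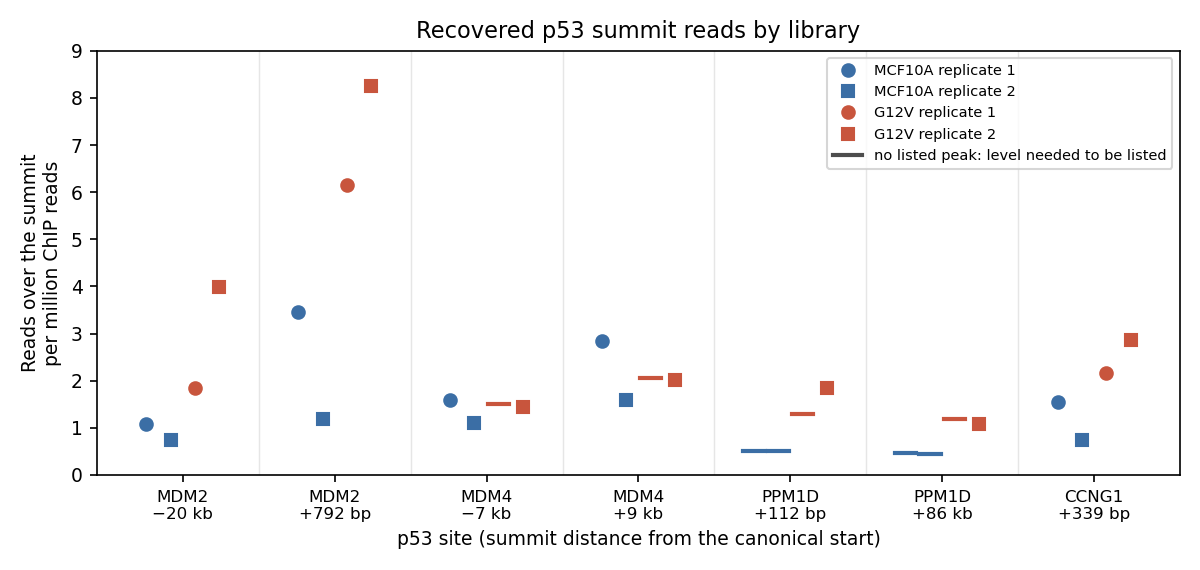
Reads over the summit per M ChIP reads at the 7 p53 sites, recovered from fold and p, with bars at the level a library without a listed peak would have needed. At the MDM4 intron the G12V replicate 2 value of 2.02 lies between the MCF10A values of 2.85 and 1.59 and just under the bar of G12V replicate 1 at 2.05. Values are not corrected for read extension, which differs between libraries.

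To ask whether occupancy differed between the cell types, log2 fold was centred on the median of each library over the 332 sites and compared with limma. None of the 3 sites of the feedback genes that could be tested passed an adjusted p of 0.05, where 1.51% of the 332 sites were higher in G12V and 2.11% lower. At the MDM2 intron the centred log2 fold was 0.50 ± 0.65 (SD, n = 2) in MCF10A and 1.51 ± 0.17 (SD, n = 2) in G12V. The difference was 1.01 with a standard error of 0.43 and a 95% interval from 0.18 to 1.85 (limma, unadjusted p = 0.0179, adjusted p = 0.148). The MDM2 upstream site had a mean of -0.64 ± 0.40 (SD, n = 2) in MCF10A and of 0.09 ± 0.41 (SD, n = 2) in G12V, a difference of 0.72 with an interval from -0.11 to 1.56 (limma, adjusted p = 0.349). CCNG1 had -1.003 ± 0.14 and -0.56 ± 0.14 (SD, n = 2 each), a difference of 0.44 with an interval from -0.40 to 1.28 (limma, adjusted p = 0.626). All 3 sites had higher centred values in both G12V libraries than in both MCF10A libraries, as did 26.5% of the 332 sites, while 20.8% were lower in both. limma gave these sites 1 shared estimate of the spread, so their standard errors are equal. With the summit reads in place of the fold, the MDM2 intron passed the threshold, at a difference of 0.99 (limma, adjusted p = 0.0213). That fit called many more sites than the fit of the fold, with 38 of the 332 higher in G12V and 29 lower. The call at the MDM2 intron was lost without MCF10A replicate 2 (difference 0.65) and without G12V replicate 1 (0.96), in fits added after seeing the data. In the fits of the fold, leaving out 1 library at a time gave differences from 0.56, without MCF10A replicate 2, to 1.47, without MCF10A replicate 1, at the MDM2 intron.

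Within the deposited lists the ranks of the cell types overlapped at each of these 3 sites. The rank percentile of the MDM2 intron was 85.1 ± 17.6 and 98.6 ± 1.82 in MCF10A and G12V (SD, n = 2 each, exact two-sided permutation test, p = 0.667). For the MDM2 upstream site it was 50.7 ± 5.65 and 66.7 ± 40.3 (SD, n = 2 each, exact permutation test, p = 1), and for CCNG1 it was 39.9 ± 29.95 and 54.6 ± 46.1 (SD, n = 2 each, exact permutation test, p = 0.667). With 2 libraries a group this test cannot give a p below 0.33. Ranked by fold instead of −log10 q, the MDM2 intron had percentiles of 98.6 and 73.9 in MCF10A and of 98.95 and 99.8 in G12V, which did not overlap. When ranks were taken among the 332 shared sites, all 3 sites were higher in both G12V libraries, each at that smallest p of 0.33 (exact permutation test). The share of the 332 sites with such an order is not given for either of these rankings. Whether these sites stand out by them cannot be read. In the deposited lists 13.3% of the shared sites had both G12V percentiles above both MCF10A percentiles, and none of the 3 sites did.

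Lists of unequal length do not give presence and absence the same meaning, so each p53 list was also shortened to its 477 strongest peaks. The MDM2 intron remained in all 4 shortened lists, as 23% of the 849 sites did. The MDM4 intron site was then in both MCF10A lists and in neither G12V list, a pattern of 11.3% of these sites, and CCNG1 was in both G12V lists and in neither MCF10A list, a pattern of 9.78%. The MDM2 upstream site was in 3 lists, the MDM4 upstream site in 1 and the PPM1D sites in 0. In the full lists no site of the 4 genes was listed in both libraries of a single cell type and in neither of the other, which held for 2.18% (MCF10A) and 1.41% (G12V) of p53 sites, and 11.1% of p53 sites were in all 4.

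**Figure D4:**
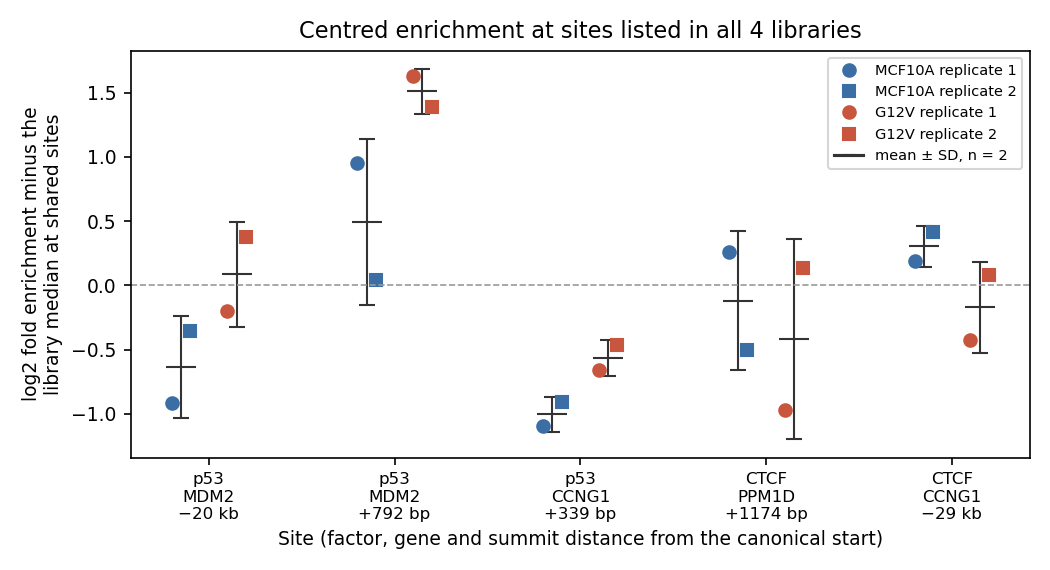
Log2 fold enrichment minus the library's median over the sites listed in all 4 libraries, for the 3 p53 and 2 CTCF sites of the feedback genes listed in all 4, with mean ± SD of 2 libraries. All 3 p53 sites are higher in both G12V libraries, with differences of 1.01, 0.72 and 0.44, none of which passed the adjusted threshold.

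CTCF sites were within 50 kb of all 4 genes and of 85.5% of protein-coding genes. PPM1D had 6, MDM4 had 4, CCNG1 had 2 and MDM2 had 1, and 8 of the 13 held a CTCF core motif of 12 bases with at most 1 mismatch, against 52.1% of all CTCF sites and 1.22% of windows beside them. The CTCF lists held 2, 6, 2 and 13 peaks of these genes among 11346, 20136, 12004 and 27678 peaks. Apart from the 2 sites listed in all 4 libraries, the sites came from replicate 2 lists alone, with 4 in both replicates 2 and 7 in G12V replicate 2 only, a class that held 25.4% of all CTCF sites. No p53 site overlapped a CTCF site, and the closest pair of summits was 1062 bp apart, at the start of PPM1D.

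The CTCF sites listed in all 4 libraries were at PPM1D and CCNG1, and such a site lay near 51.7% of genes (27.5% of CTCF sites were of this kind). At CCNG1 it was 28.9 kb upstream of the start, outside any named gene of the annotation, at chr5:162835385-162835926. It is shown because it held a core motif without mismatch, read on the minus strand and in capitals here on the plus strand, chr5:162835631-162835660: cgtgagcctGCCATCTAGTGGctacatgga. The MCF10A folds were 8.50 and 14.8 and the G12V folds 5.57 and 15.5, at ranks 1996, 775, 5880 and 2366. At PPM1D the site was in intron 1, 1.17 kb downstream of the start at chr17:58678446-58678880, and held no core motif. Folds were 8.94 and 7.86 (MCF10A) and 3.81 and 16.1 (G12V), at ranks 3127, 9757, 10856 and 2305. At both sites the lowest and the highest fold belonged to the G12V libraries.

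Neither site passed the threshold for a difference between the cell types, where 0% of the 8006 tested CTCF sites were called in either direction (limma, with 400 sites at an unadjusted p under 0.05). The centred log2 fold at CCNG1 was 0.30 ± 0.16 and -0.17 ± 0.35 in MCF10A and G12V (SD, n = 2 each), a difference of -0.47 with an interval from -1.38 to 0.43 (limma, adjusted p = 0.994). Both G12V libraries were below both MCF10A libraries there, as at 16.2% of the tested sites. At PPM1D it was -0.12 ± 0.54 and -0.42 ± 0.78 (SD, n = 2 each), a difference of -0.30 with an interval from -1.22 to 0.62 (limma, adjusted p = 0.994), and the direction turned with the summit reads as the value, to 0.35. The rank percentiles gave an exact permutation p of 0.667 at CCNG1 and 1 at PPM1D.

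The CTCF sites nearest to the starts of the other genes were 63.9 kb downstream of the MDM2 start, in intron 3 of CPM, and 13.2 kb downstream of the MDM4 start, in intron 3 of MDM4. The first was listed in MCF10A replicate 2 and G12V replicate 2 with folds of 7.15 and 5.63, and the second in G12V replicate 2 with a fold of 4.62. None of the 13 CTCF sites was listed in both libraries of a cell type and in neither of the other, a class that held 0.261% (MCF10A) and 3.33% (G12V) of all CTCF sites. The other sites of both replicate 2 lists were 49.6 kb downstream of the MDM4 start, 38.7 kb downstream of that of PPM1D and 51.6 kb downstream of that of CCNG1, with folds from 6.14 to 12.5.

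**Figure D5:**
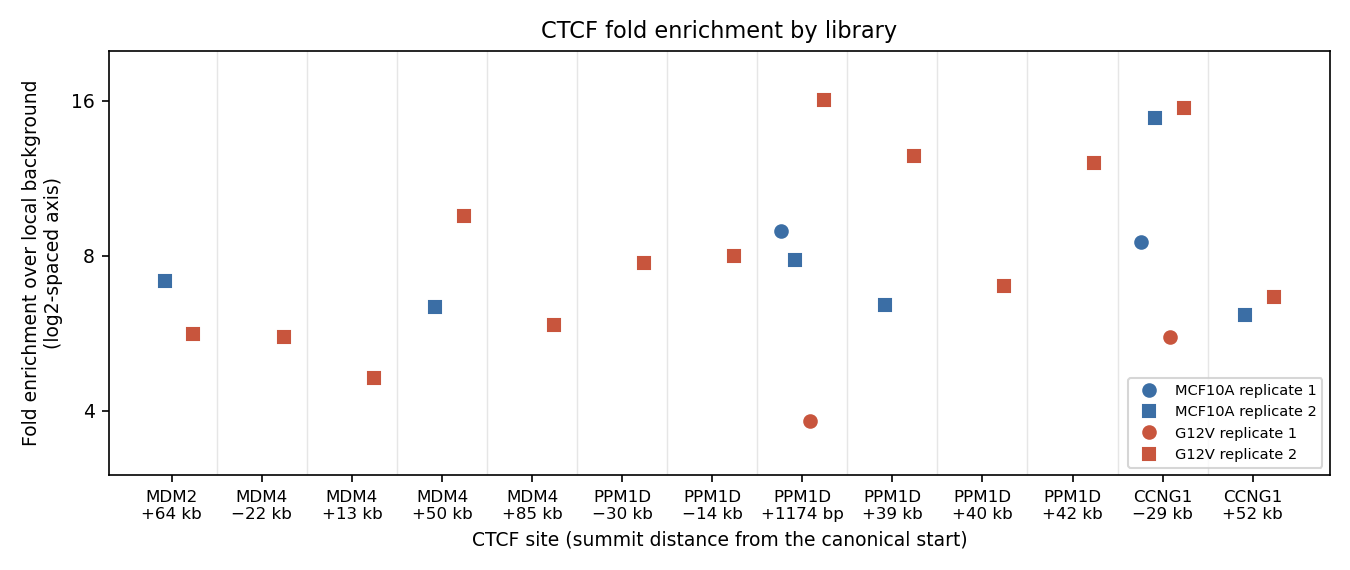
Fold enrichment over local background (log2-spaced axis) of the 13 CTCF sites in each library, circles for replicate 1 and squares for replicate 2, with no symbol where a list had no peak. Circles appear at 2 sites only, in intron 1 of PPM1D and 28.9 kb upstream of CCNG1.

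The background over the chromosome neighbourhoods was read from CTCF peaks within 2 Mb of each gene, as the median local background over that of all peaks of the library. Around MDM4 the MCF10A libraries had 2.00 and 2.00 and the G12V libraries 1.81 and 1.90, above the library median in all 4 libraries. It was 1.32 and 1.00 against 1.5 and 1.34 around PPM1D, 1.32 and 0.630 against 1.5 and 1.00 around MDM2, and 1.75 and 1.31 against 1.5 and 1.00 around CCNG1. In the same order, these medians rest on 56, 79, 68 and 100 peaks at MDM4 and on 9, 22, 15 and 31 at PPM1D. At MDM2 they rest on 13, 30, 8 and 34 peaks, and at CCNG1 on only 3, 12, 4 and 19. Within 5 Mb the difference of the means, G12V minus MCF10A, went from 0.277 to 0.0016 at MDM2, turned from -0.276 to 0.046 at CCNG1, and was 0.354 in place of 0.261 at PPM1D. The part of these levels in the fold values at each gene was not tested.

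Other genes of p53 feedback loops were described as a list of 8: the ubiquitin ligases COP1, RCHY1, SIAH1 and TRIM24, the deubiquitinase USP7, the p53 relative TP73, and the cell cycle regulators CDKN2A and RB1. A p53 site was within 50 kb of 3 of them (TP73, RB1 and TRIM24), against 18.9% of all protein-coding genes. None of the 8 had a site listed in all 4 libraries, against 2.4% of all genes. The site upstream of TRIM24 was listed in both MCF10A libraries and in G12V replicate 2, with folds of 11.6, 8.61 and 20.5, the same 3 libraries as at MDM4. Those of TP73 and RB1 came from 1 library each.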

How the data were processed

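Members and gene lists were chosen with earlier results of these data known. Reads were mapped by the authors with Bowtie on hg19 (per the submitters' processing notes), unique alignments were retained, and MACS2 with its defaults found peaks over input at a q-value of 5%. The deposited lists give per peak a score, the fold enrichment (a ratio), the −log10 p, the −log10 q and the summit. They were called on single libraries, whereas the study combined replicates. Scores were not used.

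Fold and p were solved together for the summit pileup and local background of each peak (a solution for 100% of peaks, checked on simulated lists), and the lowest background gave the depth for a genome of 2.7 Gb. Pileups count reads extended to the fragment length (147, 113, 279 and 180 bp for p53). Reads per M were not corrected for this length, which was longer in both G12V p53 libraries than in both MCF10A p53 libraries. Reads were counted without molecular identifiers. Sites listed in all 4 libraries of a factor were compared with limma 3.58.1 in R 4.3.3 (Benjamini-Hochberg over all such sites), and ranks with exact permutation tests. The alternatives were quantile normalization, no centring, summit pileup, a replicate block, −log10 q of at least 5, summits within 100 bp, windows of 10 and 100 kb, a neighbourhood of 5 in place of 2 Mb for the background, lists of equal length, other motif limits, and leaving out each library. All p53 sites were named. CTCF sites were named if listed in all 4 libraries, in both of a single cell type, or nearest to a start. The spaced p53 elements, the reads needed for listing the site pairs of both replicate 2 lists and the TRIM24 site were chosen for display after their values were seen. The input libraries entered only through the peak caller and are not analysed here on their own. P-values rest on 2 cultures a group. In the p53 fit of the fold, limma pooled the spread between cultures over all 332 sites. The standard error was 0.43 at each feedback site tested, so a site's own spread did not set its p. Of the list of other feedback loop genes, 2 are not reported here.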

Additional observations from a re-analysis of the deposited data

How the results depend on the processing

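The count of 7 p53 sites stayed within 1.5 times under every alternative, from 5 (lists of equal length, a 10 kb window, or without G12V replicate 2, which removed both PPM1D sites) to 8 with a 100 kb window. The 13 CTCF sites became 4 in lists of equal length and 6 within 10 kb, and ranged from 6, without G12V replicate 2, to 13 when a library was left out. CTCF sites with a motif fell from 8 to 4 when no mismatch was allowed. Genes with a p53 site numbered 3804, with 1939 at 10 kb, 5795 at 100 kb and 2325 (without G12V replicate 2) to 3801 without a library. Of the 332 p53 sites 12 were called by limma, 0 without centring (5 at an unadjusted p under 0.05) and 67 with the summit pileup, which also called 11 CTCF sites and 1 member site, the MDM2 intron. Leaving out a library gave 0 (without either MCF10A library) to 11 p53 calls, with 4 without G12V replicate 2. Leaving out a library with the pileup as the value, an alternative chosen after seeing the data, gave 32 and 29 p53 calls without MCF10A replicates 1 and 2 and 42 without either G12V library, 0 to 8 CTCF calls, and 0 (without MCF10A replicate 2) to 1 member call, which without G12V replicate 1 was the MDM2 upstream site. The CTCF difference at PPM1D turned to 0.35 with the pileup and ranged from -0.85 to 0.25 without a library, and was 0.39, 0.32, 0.50 and 0.20 with the pileup and without MCF10A replicates 1 and 2 and G12V replicates 1 and 2. That at CCNG1 turned to 0.021 with the pileup and without MCF10A replicate 2. The cause of these changes was not tested.

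With the replicate number as a block, 0 p53 sites were called (57 at an unadjusted p under 0.05). The same-numbered libraries share only a number, and the correlation of their deviations was 0.021 for p53 and 0.049 for CTCF. The block changed no call at a feedback gene. The p53 libraries had 9.26 to 33.2 M reads, and a site missing from a list is not shown to be unbound.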
